A study of Drosophila melanogaster with 6 samples.

Results

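The nuclear respiratory chain subunits described here are the Drosophila melanogaster genes on an Affymetrix Drosophila 2 array whose current symbol begins with ND-, SdhA to SdhD, UQCR-, COX and a digit, or ATPsyn. Such names were carried by 71 genes, of 11803 genes with a probe set annotated to 1 gene only, and each gene is represented by its probe set with the highest mean. Of these, 50 are main subunits, with 27 in complex I, 3 in complex II, 3 in complex III, 7 in complex IV and 10 in complex V. The other 21 are duplicates whose symbol ends in L, with or without a number, and they are kept apart as L paralogues. The samples were pools of 75 to 100 heads of Canton S flies, a wild-type laboratory strain, labelled female. Flies of 40 days gave 3 pools and flies of 10 days gave 3, named as independent biological replicates, with no mutation, transgene or treatment stated for either age. The comparison asks how transcripts of each complex differed between old and young heads, and differences below are day 40 minus day 10 on the log2 scale, averaged over the 3 pairs of pools that share a replicate number.

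The respiratory chain sits in the inner mitochondrial membrane and passes electrons from NADH and succinate to oxygen. Complexes I, III and IV pump protons as electrons pass, complex II feeds in electrons from succinate without pumping, and complex V, the ATP synthase, uses the returning protons to make ATP. Most subunits are encoded in the nucleus and a small core of complexes I, III, IV and V in the mitochondrial genome. Photoreceptors, neurons and muscle, all present in a fly head, depend on this chain. In Drosophila many of the duplicated subunit genes are known for expression in the testis, while the main genes are used throughout the body.

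The arrays had medians of 7.51 to 7.53 and had Pearson correlations of 0.974 to 0.992 with one another over the probe sets tested. Eye transcripts of the labelled tissue were present. Arr2, the major visual arrestin, was at 14.95, 15.09 and 15.03 in day 40 heads, against 14.89, 14.98 and 14.91 in day 10 heads. Arr2 was the brightest of its list. The photoreceptor list had a median level of 10.5, with 2 of 8 genes with a probe set among the brightest 10%. The neuron list had a median of 9.3, with 0 of 10. The markers went against the sex in the label. All 14 ovary genes with a probe set had means under 4, the least mean value tested, as did the vitelline membrane gene Vm34Ca at 2.30 on all 6 arrays. The testis list had a median level of 12.8, and 16 of its 24 genes with a probe set were among the brightest 10%. The accessory gland list had a median of 14.7, with 12 of 13 among the brightest 10%. Neither organ is part of a head, so both lists also went against the tissue in the label. The groups are therefore called day 40 heads and day 10 heads by their label only, with no sex. Where the RNA of these organs came from was not tested. Pools that share a replicate number deviated together across ages, with correlations of 0.71, 0.77 and 0.35. Main results are also given without replicate number 2, whose day 10 pool held many of the highest values.

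No respiratory chain gene passed the test by its representative probe set, with or without the replicate block. Across all 10286 probe sets tested, limma with the replicate number as a block called 64 higher at day 40 (0.622%) and 134 lower (1.3%) at an adjusted p under 0.05. Without the block it called 35 in all (0.34%). Of the members, 70 were bright enough to test and 0 were called with or without the block. At an unadjusted p under 0.05 there were 15 members with the block and 8 without it. Over all genes tested 24.8% reached that unadjusted level with the block, and the 15 members are 21.4% of those tested. The untested member was ND-B12, a small complex I subunit, which stood at 2.96 on all 6 arrays.

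Although single genes did not pass, main subunits mostly lay slightly below 0. Their median log2 difference was -0.05, with pair medians of -0.004, -0.12 and -0.04 for replicate numbers 1, 2 and 3. Below 0 lay 41 of the 49 main subunits tested, or 83.7%, against 47.5% of all genes tested. In all 3 pairs 23 were lower at day 40 and 0 were higher, against 22.6% and 26.4% of all genes. The values of the 2 ages did not overlap for 8 main subunits, all lower at day 40, where 8.3% of all genes were lower without overlap. Most main subunits are bright on these arrays. A mean of at least 12 was reached by 45 of the 49. Among the 905 genes that bright the median difference was -0.02 and 55.7% lay below 0. Of these 905 genes, 274 were lower in all 3 pairs and 235 higher, and 67 were lower without overlap. In RNA from pools labelled as heads, fewer cells of a type and less RNA per cell cannot be told apart.

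The pairs did not contribute alike. The number of main subunits lower at day 40 was 26 of 49 in the pair of number 1, 48 in that of number 2 and 36 in that of number 3. Day 10 replicate 2 held the highest of the 6 values for 35 of the 49, against 21.1% of all genes tested. Without replicate number 2, 31 of 49 main subunits, or 63.3%, lay below 0.

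**Figure D1:**
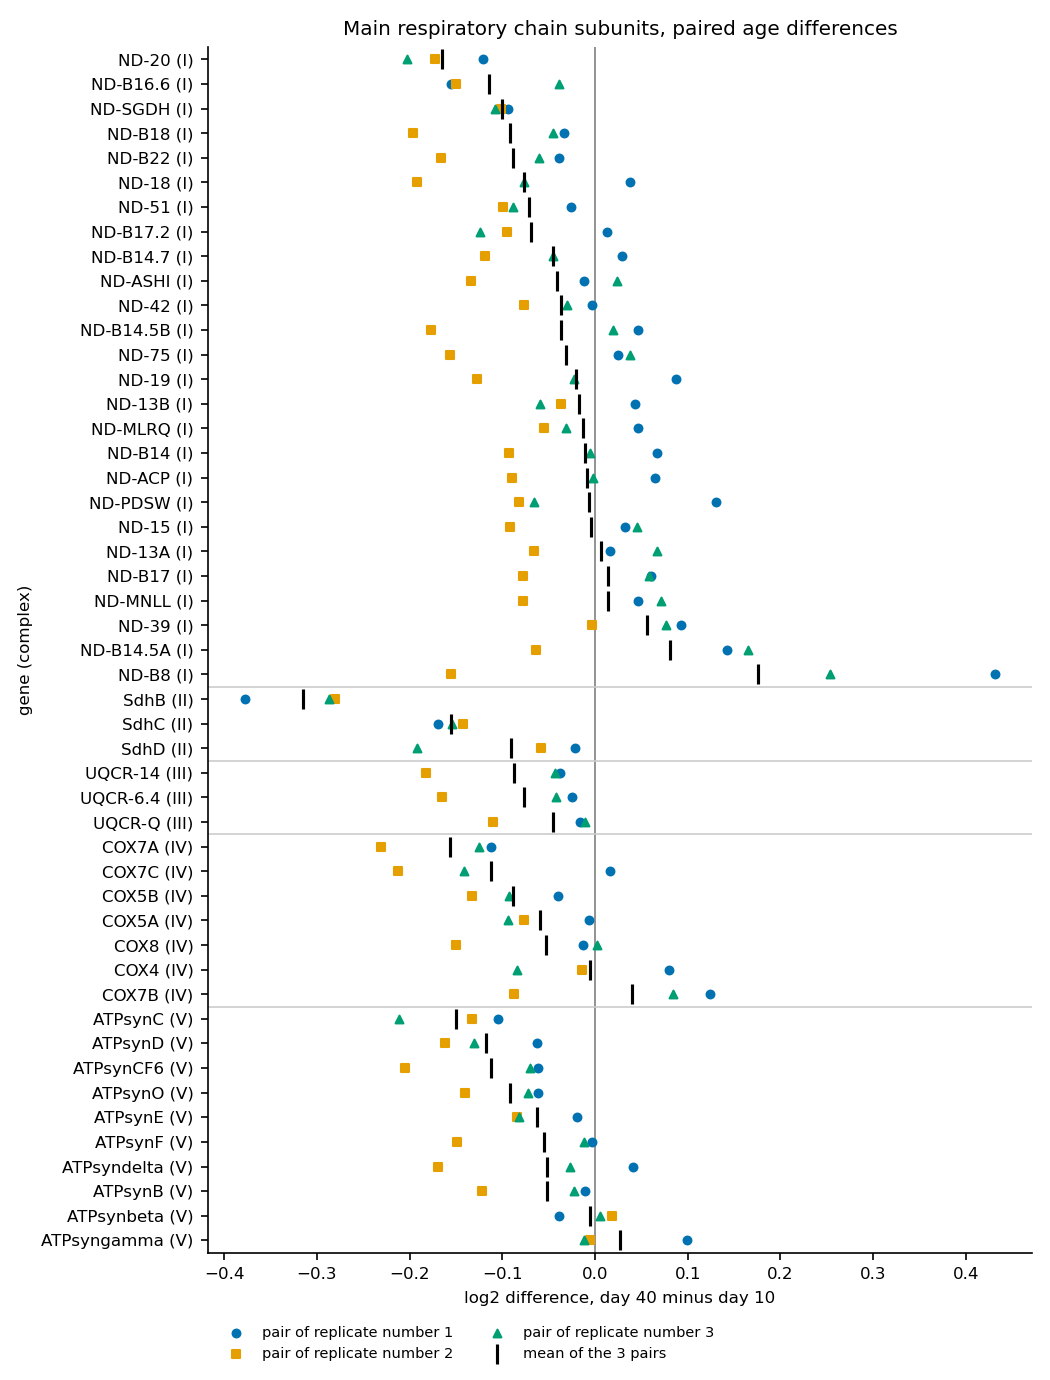
Paired age differences of the 49 main subunits tested, grouped by complex (I to V, in brackets) and sorted within each; the x axis is the log2 difference, day 40 minus day 10. Each symbol is 1 pair of pools sharing a replicate number and the black bar is the mean of the 3 pairs; 41 of the 49 means lie below 0, and the squares of number 2 lie below 0 for 48 genes.

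Complex I takes electrons from NADH through a flavin and a chain of iron-sulphur clusters to ubiquinone. Its 26 tested main subunits had a median difference of -0.03, with 20 below 0 and 6 above. Pair medians were 0.04, -0.10 and -0.03, and without replicate number 2 the median was 0.02. ND-20, which carries the iron-sulphur cluster nearest to ubiquinone, had log2 values of 13.17, 13.25 and 13.16 in day 40 heads, against 13.29, 13.42 and 13.36 in day 10 heads. All 3 day 40 values lay below all 3 day 10 values, with a log2 difference of -0.17 ± 0.042 (SE; limma adjusted p = 0.113). Its probe set, 1636029_s_at, is of a type that can share probes with other transcripts.

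The accessory subunit ND-SGDH had values of 13.59, 13.75 and 13.63 in day 40 heads, against 13.69, 13.85 and 13.74 in day 10 heads, with a log2 difference of -0.10 ± 0.037 (SE; limma adjusted p = 0.19). Its ages overlapped, although each pair was lower at day 40. ND-B16.6, the fly homologue of human NDUFA13, had values of 12.79, 12.87 and 12.93 in day 40 heads, against 12.95, 13.02 and 12.97 in day 10 heads, which did not overlap, with a log2 difference of -0.11 ± 0.047 (SE; limma adjusted p = 0.219). ND-B8, a small accessory subunit, had the most positive difference of the complex. Its values were 10.75, 10.31 and 10.76 in day 40 heads, against 10.31, 10.47 and 10.50 in day 10 heads, and the pairs disagreed in sign, with a log2 difference of 0.18 ± 0.123 (SE; limma adjusted p = 0.426). ND-MLRQ is the homologue of human NDUFA4, a protein found with complex IV in human cells. Its values were 15.33, 15.25 and 15.28 in day 40 heads, against 15.29, 15.31 and 15.31 in day 10 heads, a spread that spans both ages, with a log2 difference of -0.01 ± 0.037 (SE; limma adjusted p = 0.85). Of the catalytic core, ND-51, which binds NADH, gave -0.07 and ND-75, which holds several iron-sulphur clusters, gave -0.03; both were picked for their role after values were seen. ND-B17, an accessory subunit chosen after its values were seen, gave 0.01 (adjusted p = 0.893) from 1631318_at and -0.07 (adjusted p = 0.436) from 1630062_a_at.

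Complex II is succinate dehydrogenase, which also works in the citric acid cycle and has no mitochondrially encoded subunit. All 3 of its main subunits measured here were lower at day 40 in every pair, where 22.6% of all genes tested were. None of the 3 overlapped between ages, SdhD by a very small margin only. Over all genes tested 8.3% were lower without overlap. SdhB, the iron-sulphur subunit, had log2 values of 12.63, 12.97 and 12.89 in day 40 heads, against 13.002, 13.25 and 13.18 in day 10 heads. Its means were 12.83 ± 0.18 in day 40 heads and 13.14 ± 0.13 in day 10 heads (SD, n = 3 each), a fold of 0.804. The difference was -0.31 ± 0.045 (SE), lower in 3 of 3 pairs, and its limma adjusted p of 0.0514 just missed the threshold. SdhB was called when probe sets under a mean of 6 were left out (adjusted p = 0.0393), with arrays centred on their medians (0.0428) and with a robust variance estimate (0.0355). Without the block its adjusted p was 0.351, and over all alternatives it ran between 0.0355 and 0.582.

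SdhC and SdhD anchor the complex in the membrane. SdhC had values of 12.99, 13.11 and 13.14 in day 40 heads, against 13.16, 13.25 and 13.29 in day 10 heads, with a log2 difference of -0.16 ± 0.040 (SE; limma adjusted p = 0.115). SdhD had values of 12.68, 12.71 and 12.67 in day 40 heads, against 12.71, 12.76 and 12.86 in day 10 heads, with a log2 difference of -0.09 ± 0.053 (SE; limma adjusted p = 0.346), and its lowest day 10 value barely exceeded its highest day 40 value. The median of the 3 genes was -0.16 overall and -0.16 without replicate number 2, with pair medians of -0.17, -0.14 and -0.19. The flavoprotein subunit SdhA was not analysed here.

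Complex III passes electrons from ubiquinol to cytochrome c. Its 3 main subunits, all small and without redox groups, were lower in every pair, where 22.6% of all genes tested were. Their median was -0.08 with all pairs and -0.03 without replicate number 2. UQCR-14 had values of 14.47, 14.45 and 14.51 in day 40 heads, against 14.50, 14.64 and 14.56 in day 10 heads, with a log2 difference of -0.09 ± 0.046 (SE; limma adjusted p = 0.299). Day 40 replicate 3 exceeded day 10 replicate 1, so the ages overlapped. UQCR-6.4 gave -0.08 ± 0.045 (SE; adjusted p = 0.341) and UQCR-Q gave -0.05 ± 0.045 (SE; adjusted p = 0.568). Of other subunits of this complex, the Rieske iron-sulphur protein RFeSP gave 0.01, cytochrome c1, Cyt-c1, -0.06, and ox, a small subunit, -0.11; RFeSP was picked for its role.

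Complex IV, cytochrome c oxidase, reduces oxygen to water at a core encoded in the mitochondrial genome, which the nuclear subunits surround. Of its 7 main subunits 6 lay below 0, with a median of -0.06 overall and -0.05 without replicate number 2. COX7A had values of 13.81, 13.86 and 13.86 in day 40 heads, against 13.92, 14.09 and 13.99 in day 10 heads, and every day 40 value was below every day 10 value, with a log2 difference of -0.16 ± 0.043 (SE; limma adjusted p = 0.129). COX5B, which binds zinc on the matrix side, also showed no overlap, at 13.89, 13.87 and 13.89 in day 40 heads, against 13.93, 14.01 and 13.98 in day 10 heads, with a log2 difference of -0.09 ± 0.040 (SE; limma adjusted p = 0.25). COX8 differed by -0.05 (adjusted p = 0.512). Subunits 6A and 6C have other names in the fly, levy and cype. For cype the values were 14.34, 14.31 and 14.37 in day 40 heads, against 14.40, 14.45 and 14.42 in day 10 heads, which did not overlap, with a log2 difference of -0.09 ± 0.039 (SE; limma adjusted p = 0.251), and levy, added for its role, gave -0.05.

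COX7C and COX7B gave opposite signs from different probe sets. For COX7C the representative 1625128_a_at had values of 14.29, 14.20 and 14.28 in day 40 heads, against 14.27, 14.41 and 14.42 in day 10 heads, with a log2 difference of -0.11 ± 0.056 (SE; limma adjusted p = 0.28). Its other probe set, 1636323_at, had values of 10.93, 10.94 and 10.94 in day 40 heads, against 10.76, 10.80 and 10.82 in day 10 heads, higher at day 40 with no overlap, with a log2 difference of 0.14 ± 0.051 (SE; limma adjusted p = 0.184). For COX7B, 1632440_at gave 0.04 (adjusted p = 0.678) and 1627402_a_at gave -0.09 (adjusted p = 0.308). The remaining COX7B probe set had a mean of 2.09 and was not tested. Of the 6 members with several tested probe sets, 4 had probe sets of both signs.

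Complex V joins a membrane rotor, driven by protons, to a catalytic head. Its 10 main subunits had a median of -0.06 with all pairs and -0.03 without replicate number 2. Below 0 lay 9, and 7 were lower in all 3 pairs, against 47.5% and 22.6% of all genes tested. ATPsynC, the subunit of the rotor ring, had values of 13.90, 14.29 and 13.99 in day 40 heads, against 14.01, 14.42 and 14.21 in day 10 heads. The spread among replicate numbers was wider than the age difference, yet each pair was lower at day 40, with a log2 difference of -0.15 ± 0.041 (SE; limma adjusted p = 0.127), against 0.684 without the block. ATPsynD, of the stalk that holds the head still, had values of 13.82, 13.92 and 13.83 in day 40 heads, against 13.88, 14.08 and 13.96 in day 10 heads, with a log2 difference of -0.12 ± 0.041 (SE; limma adjusted p = 0.174). ATPsynCF6, coupling factor 6 of the same stalk, had values of 13.97, 13.9998 and 14.01 in day 40 heads, against 14.03, 14.20 and 14.08 in day 10 heads, which did not overlap, with a log2 difference of -0.11 ± 0.046 (SE; limma adjusted p = 0.222). ATPsynF, a small membrane subunit, gave -0.05 (adjusted p = 0.491).

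ATPsyngamma and ATPsynbeta each had 2 probe sets, which gave different values. ATPsyngamma, the shaft inside the head, gave 0.03 (adjusted p = 0.722) from 1632838_at. From 1627018_s_at it had values of 13.28, 13.58 and 13.39 in day 40 heads, against 13.42, 13.73 and 13.56 in day 10 heads, lower in each pair, with a log2 difference of -0.15 ± 0.038 (SE; limma adjusted p = 0.112). ATPsynbeta, the catalytic subunit, was singled out after its values were seen. Its representative 1630984_at had values of 13.60, 13.64 and 13.55 in day 40 heads, against 13.64, 13.62 and 13.55 in day 10 heads, which overlapped, with a log2 difference of -0.0049 ± 0.039 (SE; limma adjusted p = 0.952). Its other probe set, 1633673_a_at, had values of 11.93, 13.07 and 12.02 in day 40 heads, against 12.98, 13.55 and 13.17 in day 10 heads. Day 40 replicate 2 was above day 10 replicate 1, while the pairs differed by -1.05, -0.48 and -1.15.

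The mean difference of 1633673_a_at was -0.89 ± 0.141 (SE), a fold of 0.538, with a limma adjusted p of 0.0621 with the block and 0.352 without it. It was called without replicate number 2 (-1.10; adjusted p = 0.0111), with the filter at 6 (0.0387), with centred arrays (0.0457) and with the robust estimate (0.0448). No other probe set of a member differed by as much between the ages. Which transcripts of ATPsynbeta each probe set detects was not tested.

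**Figure D2:**
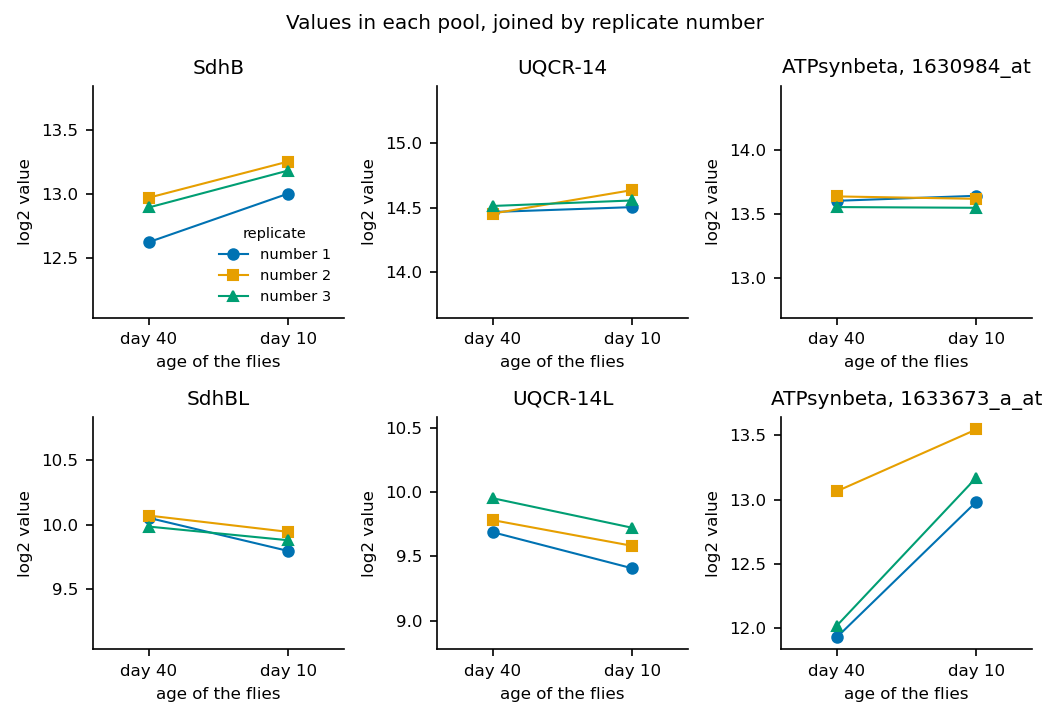
Log2 values of SdhB and its L paralogue SdhBL, of UQCR-14 and UQCR-14L, and of the 2 probe sets of ATPsynbeta, with day 40 left of day 10. Each line joins the 2 pools of 1 replicate number and every panel spans the same height; SdhB slopes up towards day 10 in 3 of 3 pairs while SdhBL and UQCR-14L slope down, and the probe sets 1630984_at and 1633673_a_at of ATPsynbeta differ.

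The L paralogues lay on the other side of 0 from the main subunits. All 21 were tested, with a median difference of 0.16 and pair medians of 0.25, 0.16 and 0.06. Above 0 lay 18 of 21, against 52.5% of all genes tested, and 13 were higher in all 3 pairs, against 26.4%. Without overlap between ages 6 were higher at day 40, where 11.6% of all genes were, and 1 was lower, where 8.3% were. At an unadjusted p under 0.05 (limma with the block) there were 8, or 38.1%, against 24.8% of all genes tested. Of these 8, 7 were higher. None was called after adjustment, where the smallest adjusted p was 0.109. Day 10 replicate 1 held the lowest of the 6 values for 15 of the 21 paralogues, against 21.2% of all genes tested. Without replicate number 1 the median was 0.09 and 17 lay above 0, and without replicate number 2 it was 0.16 and 17 lay above 0. Without the block and without day 10 replicate 1 alone, the median was 0.09 and 16 lay above 0.

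**Figure D3:**
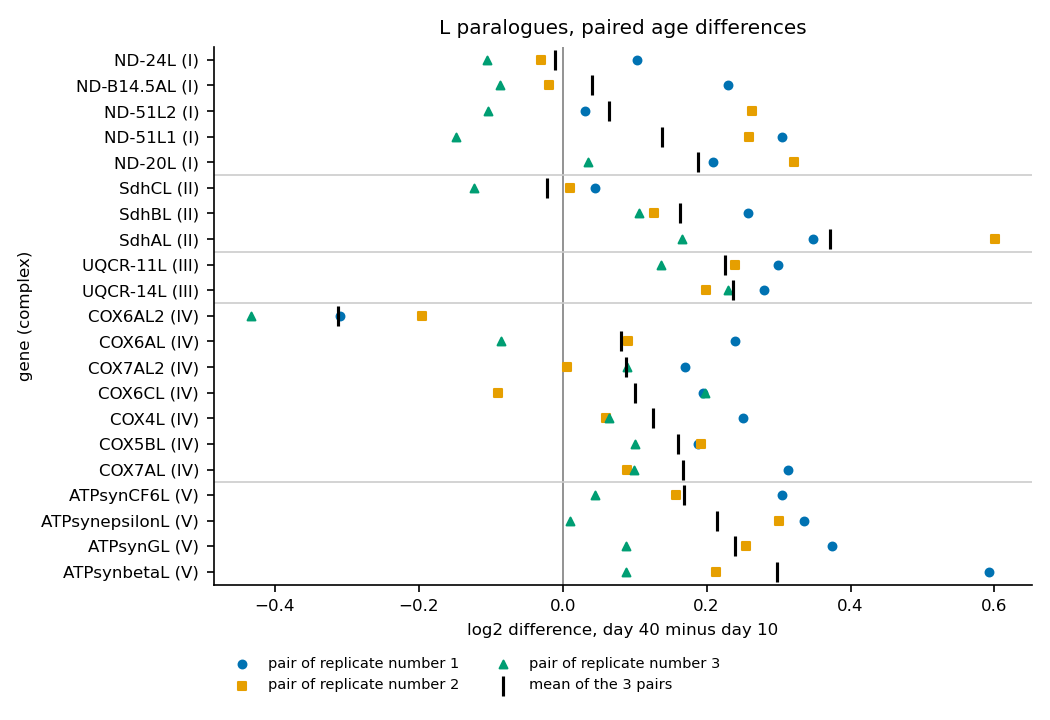
Paired age differences of the 21 L paralogues, grouped by complex (I to V, in brackets), on an x axis of log2 difference, day 40 minus day 10. Each symbol is 1 pair of pools sharing a replicate number and the black bar is the mean of the 3 pairs; 18 of 21 means lie above 0, and COX6AL2 lies below 0 in 3 of 3 pairs.

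In complex I, ND-20L had values of 9.43, 9.59 and 9.51 in day 40 heads, against 9.22, 9.27 and 9.47 in day 10 heads, higher in each pair, with a log2 difference of 0.19 ± 0.078 (SE; limma adjusted p = 0.223). The paralogues of the NADH-binding subunit, ND-51L1 and ND-51L2, gave 0.14 (adjusted p = 0.507) and 0.06 (adjusted p = 0.713), and both were lower at day 40 in the pair of number 3. ND-B14.5AL gave 0.04 (adjusted p = 0.794) and ND-24L gave -0.01 (adjusted p = 0.939), with pairs of both signs. In complex II, SdhAL, a paralogue of the flavoprotein subunit, had values of 8.33, 8.39 and 8.39 in day 40 heads, against 7.99, 7.79 and 8.22 in day 10 heads. The day 40 values lay close together and above every day 10 value, with a log2 difference of 0.37 ± 0.103 (SE; limma adjusted p = 0.129). SdhBL had values of 10.05, 10.07 and 9.99 in day 40 heads, against 9.80, 9.94 and 9.88 in day 10 heads, with no overlap and a log2 difference of 0.16 ± 0.062 (SE; limma adjusted p = 0.198). SdhCL gave -0.02 (adjusted p = 0.851).

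Both paralogues of complex III were higher at day 40 in each pair. UQCR-11L had values of 11.34, 11.31 and 11.36 in day 40 heads, against 11.04, 11.07 and 11.23 in day 10 heads, with no overlap and a log2 difference of 0.23 ± 0.057 (SE; limma adjusted p = 0.113). UQCR-14L had values of 9.69, 9.78 and 9.95 in day 40 heads, against 9.41, 9.58 and 9.72 in day 10 heads, which overlapped between ages although the 3 pairs differed by similar amounts, with a log2 difference of 0.24 ± 0.058 (SE; limma adjusted p = 0.109). In complex V all 4 paralogues were higher in each pair. ATPsynGL had values of 10.94, 10.88 and 10.80 in day 40 heads, against 10.57, 10.62 and 10.71 in day 10 heads, with no overlap and a log2 difference of 0.24 ± 0.073 (SE; limma adjusted p = 0.148). ATPsynbetaL had values of 6.69, 6.40 and 6.503 in day 40 heads, against 6.10, 6.18 and 6.41 in day 10 heads, where day 10 replicate 3 reached into the day 40 range, with a log2 difference of 0.30 ± 0.120 (SE; limma adjusted p = 0.213). ATPsynCF6L gave 0.17 (adjusted p = 0.215) and ATPsynepsilonL gave 0.22 (adjusted p = 0.237), both without overlap but by a small margin. The lowest day 40 value of ATPsynCF6L was 11.2576, against a highest day 10 value of 11.2517. For ATPsynepsilonL these were 7.6918 and 7.6915.

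In complex IV, 6 of 7 paralogues lay above 0. COX5BL had values of 11.15, 11.22 and 11.28 in day 40 heads, against 10.96, 11.03 and 11.18 in day 10 heads, with a log2 difference of 0.16 ± 0.052 (SE; limma adjusted p = 0.16). COX7AL gave 0.17 (adjusted p = 0.199), COX4L gave 0.13 (adjusted p = 0.264), COX6CL gave 0.10 (adjusted p = 0.472) and COX6AL gave 0.08 (adjusted p = 0.561). COX7AL2 gave 0.09 (adjusted p = 0.313), from a probe set of the type that can share probes with other transcripts. COX6AL2 had the opposite sign. Its values were 7.93, 8.18 and 8.13 in day 40 heads, against 8.24, 8.38 and 8.56 in day 10 heads, every day 40 value below every day 10 value, with a log2 difference of -0.31 ± 0.077 (SE; limma adjusted p = 0.11).

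Paralogues were then set against the main gene of the same subunit, each by its own difference. A tested main gene was available for 17 of the 21, counting levy for COX6AL and COX6AL2, cype for COX6CL and sun (subunit epsilon) for ATPsynepsilonL, which are not among the 50 main subunits. The paralogue's difference exceeded that of the main gene in 15 of the 17 and in all 3 pairs in 11, with a median gap of 0.21. That median is the gap between ATPsynepsilonL and sun. The probe set of sun was dim and nearly flat, at 5.53, 5.53 and 5.54 in day 40 heads, against 5.56, 5.54 and 5.51 in day 10 heads. Its gap is thus close to the difference of ATPsynepsilonL alone, 0.22. The gap was 0.48 between SdhBL and SdhB, 0.35 between ND-20L and ND-20, and 0.32 between UQCR-14L and UQCR-14. The exceptions were ND-B14.5AL, with a gap of -0.04, and COX6AL2 against levy, with a gap of -0.26. The 17 comparisons share 14 main genes, so they are not independent.

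Testis transcripts differed in the same direction as most paralogues. The 22 tested genes of the testis list had a median difference of 0.16, with pair medians of 0.23, 0.20 and 0.07, 0.14 without replicate number 1 and 0.16 without number 2. Above 0 lay 20 of 22, against 52.5% of all genes tested. Without overlap 11 were higher at day 40, where 11.6% of all genes were. Their summed level on the log2 scale ran from 17.82 to 17.88 in day 40 heads and from 17.59 to 17.78 in day 10 heads. Day 10 replicate 1 held the lowest value for 15 of the 22, against 21.2% of all genes tested. Of the defining genes ocn, a testis-specific gene, had values of 14.85, 14.84 and 14.89 in day 40 heads, against 14.64, 14.72 and 14.83 in day 10 heads, and the sperm tail gene Mst87F had 14.77, 14.80 and 14.92 in day 40 heads, against 14.58, 14.75 and 14.79 in day 10 heads. The regulators aly and can had means under 4.

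The sperm gene dj went the other way, at 8.37, 8.29 and 8.31 in day 40 heads, against 9.40, 9.54 and 9.58 in day 10 heads, with a log2 difference of -1.18 ± 0.077 (SE; limma adjusted p = 0.0123). It was the testis gene called with the block and without it. Its call was lost without replicate 1 (0.101) or 3 (0.0613) and without a filter (0.176). Its relative djl gave 0.27 (adjusted p = 0.0718) and S-Lap2, a sperm aminopeptidase, gave 0.25 (adjusted p = 0.0672). The part of the testis transcripts in the paralogues' values was not tested. The accessory gland list, of the other male organ, had a median of 0.03 and pair medians of -0.20, 0.37 and -0.03, with a summed level of 18.21 to 18.43 in day 40 heads and 17.89 to 18.59 in day 10 heads.

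Other cell types were followed because main subunits are present in all of them. The 15 muscle genes had a median of 0.19, with 12 above 0, against 52.5% of all genes tested. Their summed levels were 16.71 to 16.80 in day 40 heads and 16.56 to 16.68 in day 10 heads. Act87E, a muscle actin, gave 0.38 (limma adjusted p = 0.0366) and TpnC73F, a troponin C, gave 0.60 (limma adjusted p = 0.0416). Both calls were lost when any replicate number was left out (adjusted p between 0.0935 and 0.228) and without the block. They were also lost without a filter (0.176 and 0.202), and that of Act87E without an intensity trend in the fit (0.0648). Averaging the 2 probe sets of TpnC73F gave 0.30, which was not called (limma adjusted p = 0.0947). TpnC4, another troponin C, gave -0.61 (adjusted p = 0.138) and fln, the flight muscle protein flightin, gave -0.58 (adjusted p = 0.0724), both lower in 3 of 3 pairs without overlap; they were chosen after their values were seen. Photoreceptor genes summed to 15.72 to 15.92 in day 40 heads and 15.78 to 15.86 in day 10 heads. Neuron genes summed to 13.08 to 13.21 in day 40 heads and 12.93 to 13.27 in day 10 heads, with futsch and para under the filter. The 7 tested fat body genes had a median of -0.24, with 6 below 0, against 47.5% of all genes tested. Most main subunits lay in the same direction. Most muscle and testis genes lay in the other direction. At an unadjusted p under 0.05 (limma with the block) were 4 of the 7 fat body genes. The same held for 12 of 15 muscle genes and 16 of 22 testis genes, against 24.8% of all genes tested. Fat body genes summed to 17.17 to 17.28 in day 40 heads and 17.21 to 17.34 in day 10 heads, with Fbp1 under the filter. The 3 brightest of this list, Cyp4g1, apolpp and FASN1, gave 0.001, -0.0049 and -0.12. Lsp2, a larval serum protein, fell in each pair at 2.95, 2.96 and 7.55 in day 40 heads, against 5.79, 4.92 and 9.31 in day 10 heads, with a log2 difference of -2.19 ± 0.225 (SE; limma adjusted p = 0.0316). In day 40 replicates 1 and 2 Lsp2 lay under 4, the least mean value tested. The ages overlapped, and its call was lost without replicate 1 (0.1) or 3 (0.071), without a filter (0.205) and without the block (0.599). The part of these cell types in the subunits' values was not tested.

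**Figure D4:**
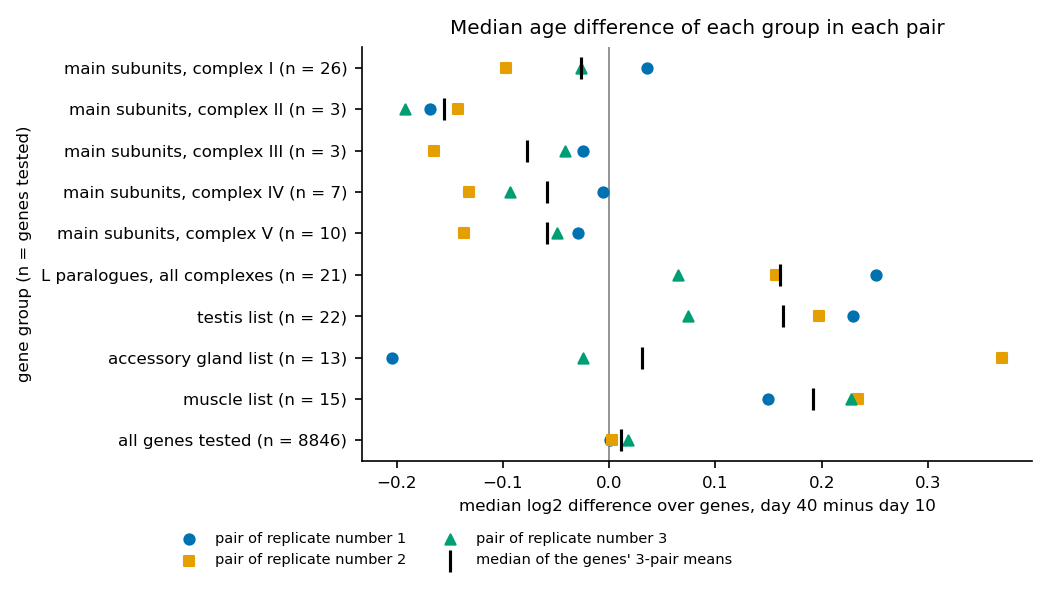
Median log2 difference, day 40 minus day 10, of the main subunits of each complex, the L paralogues, 3 marker lists and all genes tested, with the number of genes in brackets. Each symbol is the median over genes in 1 pair of pools and the black bar is the median of the genes' 3-pair means; complex II lies between -0.19 and -0.14 in the 3 pairs, the L paralogues between 0.06 and 0.25 and the testis list between 0.07 and 0.23.

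Genes that serve the chain without carrying the member names were counted from separate lists. The 7 subunits under other names had a median of -0.05, with 4 below 0 and 0 called. The 13 subunits encoded in the mitochondrial genome were not analysed here. Of 10 assembly factors tested 7 lay below 0 and 0 were called. Cox17, which hands copper to complex IV, had values of 12.39, 12.37 and 12.35 in day 40 heads, against 12.52, 12.56 and 12.62 in day 10 heads, with no overlap and a log2 difference of -0.19 ± 0.050 (SE; limma adjusted p = 0.121). Sdhaf3, an assembly factor of complex II, gave 0.22 (adjusted p = 0.197) and CIA30, one of complex I, gave -0.09 (adjusted p = 0.386).

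Of 12 citric acid cycle genes 8 lay below 0 and 1 was called. Idh3g, a subunit of the NAD-dependent isocitrate dehydrogenase, had values of 12.07, 12.52 and 12.14 in day 40 heads, against 12.45, 12.88 and 12.56 in day 10 heads. The ages overlapped, but the pairs differed by -0.38, -0.36 and -0.42, with a log2 difference of -0.38 ± 0.044 (SE; limma adjusted p = 0.0372). Its call was lost without the block (adjusted p = 0.395) and when any replicate number was left out (between 0.0953 and 0.215). The same held without a filter (0.176) and without an intensity trend in the fit (0.0645). Idh3b, another subunit of the same enzyme, had values of 11.74, 12.01 and 12.12 in day 40 heads, against 11.51, 11.61 and 11.68 in day 10 heads, higher at day 40 without overlap, with a log2 difference of 0.36 ± 0.061 (SE; limma adjusted p = 0.0683). Idh3a, a further subunit named after its values were seen, gave -0.24 (limma adjusted p = 0.0815), lower in each pair. Idh, the NADP-dependent enzyme, gave -0.26 (adjusted p = 0.0705).

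Of 8 tested genes of mitochondrial transcription and biogenesis 5 lay below 0 and 0 were called. The mitochondrial transcription termination factor family members mTerf3 and mTTF gave -0.26 (adjusted p = 0.241) and -0.16 (adjusted p = 0.283), and the protease Lon gave 0.13 (adjusted p = 0.293). Of 11 carriers and porins 7 lay above 0 and 0 were called. Mpcp1, a phosphate carrier that supplies the ATP synthase, had values of 10.29, 10.56 and 10.54 in day 40 heads, against 10.51, 10.85 and 10.75 in day 10 heads, lower in each pair, with a log2 difference of -0.24 ± 0.054 (SE; limma adjusted p = 0.0992). Mpcp2, a second phosphate carrier, was brighter, with a mean of 14.76 against 10.59 for Mpcp1. It gave 0.02 (limma adjusted p = 0.729), higher in each pair, and was named after its values were seen. The uncoupling protein relatives Ucp4A and Ucp4C gave -0.40 (adjusted p = 0.124) and 0.18 (adjusted p = 0.171).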

How the data were processed

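The deposited table holds log2 values of 15131 probe sets on 6 arrays, made with GCRMA (background correction, normalization between arrays and probe summary) per the submitters' processing notes; for its version, filters and build, the sources used here give nothing. Per the labels' protocols, 150 ng of RNA was amplified with a 3' kit. Raw scans and detection calls were not used, and the number of arrays limits the precision. The platform annotation gave 13333 probe sets 1 gene, 390 several and 1408 none; 13250 had a current symbol through the Entrez ID in RefSeq. Of the members' probe sets, 11 can share probes with other transcripts by their suffix.

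Probe sets with a mean log2 of at least 4 (10286) were fitted with limma 3.58.1 in R 4.3.3 (lmFit, eBayes with an intensity trend) on age with replicate number as a block. p-values were adjusted by Benjamini-Hochberg over all of them, with a threshold of 0.05. The fit was first run on simulated data with planted log2 differences of 1 and 2 in either direction. These are larger than the difference of any representative member, so that run does not show how well differences of the members' size are found. The sample titles number the replicates of each age and state no pairing between ages. Deviations from the age means correlated at 0.707, 0.772 and 0.353 within numbers 1, 2 and 3, each above 0.1. Of the 6 samples, 6 correlated best with their own number, so the number was kept as a block. With 3 pools an age, these correlations cannot establish how the pools were paired. Nothing says whether pools came from separate cultures beyond the replicate label, so p-values refer to these pools only. SDs are over 3 pools an age. SEs and p-values are those of limma. Their variance combines the probe set's own spread with that of other probe sets of like intensity, so they are not the spread of 1 probe set alone.

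Members and lists were chosen with earlier results of these data known, so list counts and medians are descriptions. Named genes are, per complex, the 3 main subunits with the smallest p, the highest and lowest difference and the highest level, every L paralogue, other probe sets that differ in direction, and, of pathway and testis lists, the 3 genes with the smallest p, with every gene called in the marker lists and some of their brightest; genes named outside this rule are said to be. Alternatives were no block, no filter or one at 6, arrays centred or quantile normalized, no trend, a robust fit, the mean of a gene's probe sets, values floored at 4, and leaving out each replicate number or sample.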

Additional observations from a re-analysis of the deposited data

How the results depend on the processing

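With the replicate block left out, the count of probe sets called went down to 35, against 198 with it, and it was 119 without an intensity trend, 395 with a robust estimate, 294 with the filter at 6, 262 with centred arrays, 248 after quantile normalization, 200 with values floored, 164 for means of probe sets, 0 with no filter (2385 at an unadjusted p under 0.05, limma) and between 7 and 118 when a replicate number or sample was left out. By their representative probe sets, no respiratory chain member was called without the replicate block or with any replicate or sample left out, and SdhB was the 1 called under any setting, with the filter at 6, with centred arrays and with the robust estimate. The other probe set of ATPsynbeta, 1633673_a_at, was called under these settings and without replicate number 2. The complex II median was -0.1175 after quantile normalization and between -0.1934 and -0.1099 with a replicate or sample left out, and the medians of complexes II to V stayed below 0 under all 18 alternatives. The complex I median was above 0 without replicate number 2 (0.0192) and, without the block, without day 10 replicate 2 (0.0238). The main subunits below 0 numbered 32 after quantile normalization and between 29 and 44 with a replicate or sample left out, with 29 reached without day 10 replicate 2 and without the block. The L paralogue median was between 0.0898 (without the block and without day 10 replicate 1) and 0.2222, with 0.0945 without replicate number 1, and the number above 0 was between 16 and 20; that count and the testis median (0.1325 to 0.2224) were added after seeing the data. Averaging a gene's probe sets turned COX7C to 0.0145, COX7B to -0.0295, ND-B17 to -0.0278 and ATPsyngamma to -0.0626, and moved ATPsynbeta to -0.4492 (adjusted p = 0.0782, against -0.0049 for its representative), and quantile normalization turned ATPsynbeta to 0.0254 and ND-75 to 0.0 (rounded). With a replicate or sample left out, the sign turned for ND-MLRQ (-0.0428 to 0.0076), COX7B (-0.0019 to 0.104), ATPsyngamma (-0.0085 to 0.0529), ND-24L (-0.0728 to 0.069), ND-51L2 (-0.0362 to 0.1854), ND-B14.5AL (-0.0532 to 0.138), SdhCL (-0.0997 to 0.0504), COX6AL (-0.0117 to 0.1652), ATPsynbeta (-0.032 to 0.0171), ND-B17 (-0.029 to 0.0591), ND-75 (-0.0782 to 0.031), RFeSP (-0.0359 to 0.0507) and levy (-0.092 to 0.0157). The cause of these shifts was not tested. Of 79 genes and probe sets examined 65 kept their sign under each alternative. Signal over background could not be judged per array, since detection calls were not used.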
